A study of Sus scrofa with 6 samples.

Results

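A set of 10 genes of the intestinal mucus layer and of goblet cells was followed in the ileum of suckling piglets. They are MUC2, FCGBP, CLCA1, ZG16, TFF3, SPINK4, AGR2, MUC13, ATOH1 and SPDEF, chosen by name from the 20648 genes counted, and all 10 were found. Single cells of the ileum had been tagged in droplets with a barcode for the cell and a unique molecular identifier (UMI) for each captured transcript, and the UMIs were counted per gene. The piglets were full-term Large White animals of 3 sows, suckled without antibiotics or vaccines and kept together, with males named in the labels. Age was the only recorded difference between the groups, and how the litters were spread over the ages is not stated. There was 1 library for each of 6 ages, namely birth (day 0) and 1, 3, 7, 14 and 21 days. The methods give several piglets but 1 chip loading per age, so a library is taken as pooled animals and no value between ages has a replicate check. No difference between ages was therefore tested, and the 95% intervals below (exact Clopper-Pearson for shares of cells, exact Poisson for UMIs) cover counting error only.

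Goblet cells are secretory cells of the gut epithelium that fill their granules with the gel-forming mucin MUC2 and release it as the mucus layer that keeps microbes off the surface. Commitment to secretory fate needs ATOH1, and SPDEF then drives goblet cell maturation. The gel also holds FCGBP and CLCA1, which bind or process MUC2, together with trefoil factor and other small secreted proteins, while AGR2 helps mucins to fold in the endoplasmic reticulum and MUC13 is a mucin anchored in the membrane of epithelial cells in general.

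On the Sscrofa11.1 assembly of the pig, with positions from RefSeq, MUC2 lies at chr2:689363-719542, FCGBP at chr6:48331753-48375099, CLCA1 at chr4:129621259-129655385 and ZG16 at chr3:18018866-18019501. TFF3 lies at chr13:205641038-205644333 and MUC13 on the same chromosome at chr13:135416709-135446337. SPINK4 is found at chr10:33246260-33255617, AGR2 at chr9:86042070-86053893, SPDEF at chr7:30515925-30538095 and ATOH1 at chr8:125768232-125770619. All are annotated as protein coding, and the counts are per gene, not per exon or transcript.

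The libraries held between 77391932 and 100348769 UMIs. Barcodes with at least 1000 UMIs and 500 genes were taken as cells, which gave 76099 cells, 10836 to 15956 per library, and 672 barcodes were shared between libraries. Epithelial cells were those with at least 5 UMIs of EPCAM, KRT8 and VIL1 together and at most 1 of PTPRC, the gene of the leukocyte antigen CD45. In order of age they numbered 2741 (25.3% of cells), 1002 (8.72%), 90 (0.792%), 192 (1.52%), 28 (0.175%) and 1. The other epithelial markers KRT19 and CLDN7 were present in the epithelial cells of each library, while KRT18 had no UMI on day 14. Most cells from day 3 onward carried B lineage markers, 8754 on day 3 and 13292 on day 21. A level below is a gene's UMIs, summed over the cells named, per 10000 UMIs of those cells, and a share is the percentage of cells in which the gene was counted at all.

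**Figure D1:**
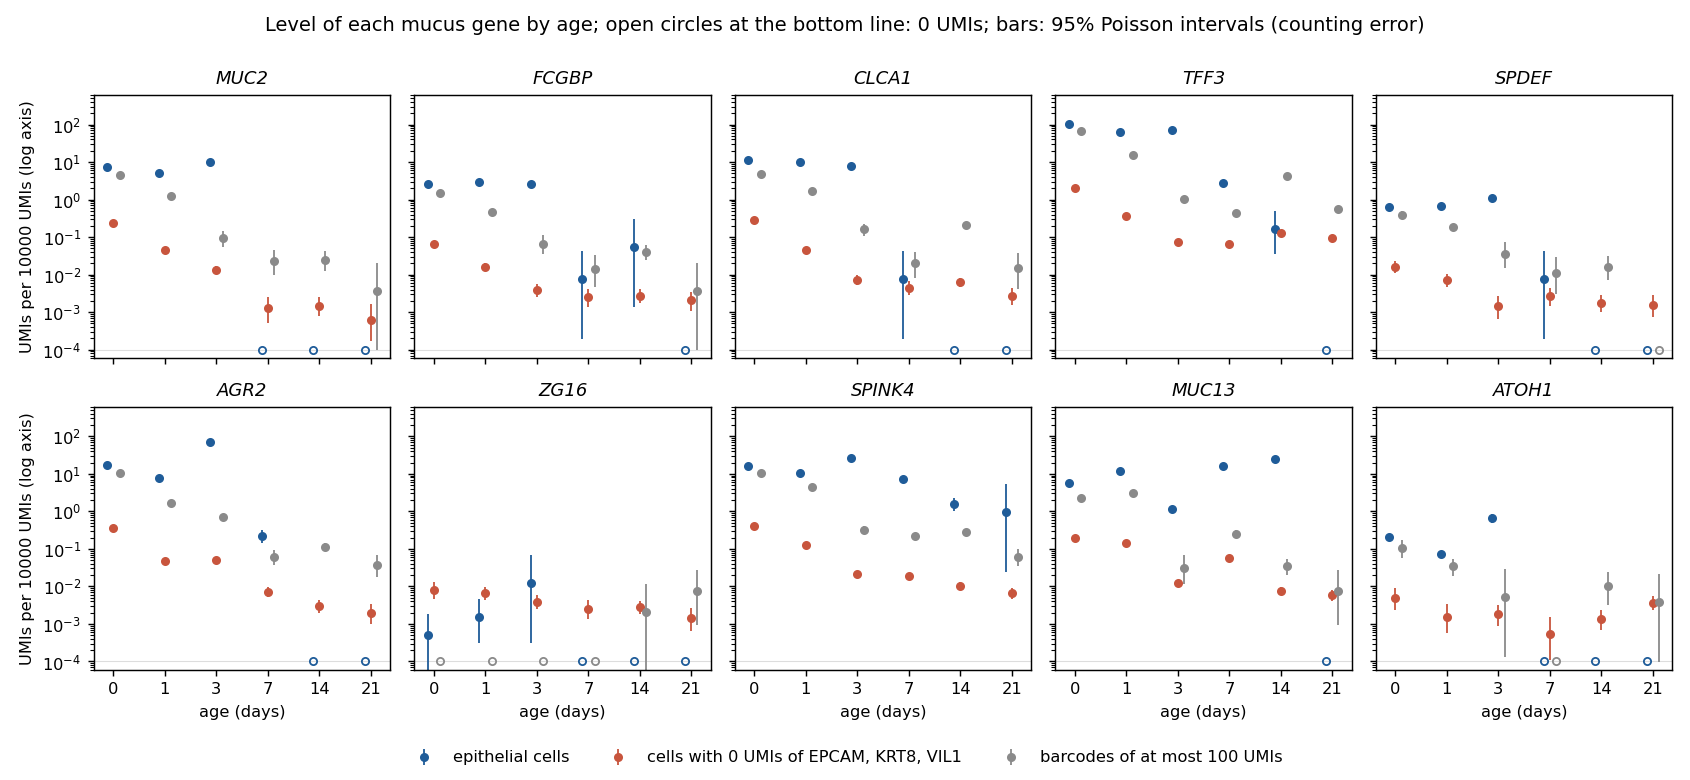
Level of each gene by age on a log axis, in UMIs per 10000 UMIs, for epithelial cells (blue), cells with no UMI of EPCAM, KRT8 or VIL1 (red) and barcodes of at most 100 UMIs (grey), 1 library per age; bars are 95% Poisson intervals and open circles on the bottom line stand for 0 UMIs. MUC2, FCGBP, CLCA1, SPDEF, AGR2 and ATOH1 in epithelial cells sit high on days 0 to 3 and near or at 0 from day 7, while MUC13 does not.

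The secreted gel proteins were seen in the epithelium of the first 3 libraries and were at or near 0 from day 7. MUC2, the gel-forming mucin itself, stood at 7.25 UMIs per 10000 in epithelial cells on day 0, 5.06 on day 1 and 10.1 on day 3. On day 7 it had 0 UMIs in 192 epithelial cells, and none on days 14 and 21. A further 64 cells of day 7 met the marker minimum but were left out for PTPRC, and 1 of them had 12 MUC2 UMIs. Against day 3 the level on day 7 was 429-fold lower with 3 UMIs taken as the floor for a count of 0. The exact interval of the ratio reaches 0.00287. After thinning every cell to 1000 UMIs, MUC2 gave 11.5, 6.46 and 10.0 on days 0, 1 and 3, so the order of days 0 and 3 depended on the weight of deep cells. FCGBP, a large IgG Fc-binding protein of the mucus, gave 2.63, 2.96 and 2.54 per 10000 by sums and 4.41, 3.89 and 1.78 after thinning on those days, then 1 UMI was counted on day 7 and 1 on day 14. CLCA1, a secreted protease that cuts MUC2, gave 11.6, 10.3 and 7.95 per 10000 by sums and 18.4, 14.7 and 6.89 after thinning on those days, and 1 UMI on day 7. MUC2, FCGBP and CLCA1 were thus counted in the libraries of days 0, 1 and 3 and were at or near 0 on days 7 and 14, while the single epithelial cell of day 21 sets no limit.

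ZG16, a lectin of the colonic mucus layer that binds bacterial cell walls, was all but missing from the epithelium. It had 2, 3 and 1 UMIs in the epithelial cells of days 0, 1 and 3 and none later, so it could not be compared between ages. Over all 76099 cells 142 UMIs of ZG16 were counted, of which 4.23% lay in epithelial cells, against 83.3% to 89.4% for the other members. Outside the epithelium it was met most often in myeloid cells, called from their own markers, although no difference between classes was tested. It was found in 9 of 246 myeloid cells on day 0 (3.66%, 95% CI 1.69 to 6.83) and in 20 of 983 on day 1 (2.03%, 1.25 to 3.12), against 1 of 2207 B lineage cells on day 0 (0.0453%) and 0 of 4206 on day 1, which allows a share of up to 0.0713% with a UMI. In T and NK cells it was found in 2 of 1674 on day 0 (0.119%, 0.0145 to 0.431) and in 1 of 1843 on day 1 (0.0543%, 0.00137 to 0.302). Later it was in 4 of 200 myeloid cells on day 3, 2 of 30 on day 7, 3 of 138 on day 14 and 0 of 14 on day 21, while the share of B lineage cells with it lay between 0.0602% and 0.160% in those libraries. Median depth on day 0 was 5731 UMIs in the myeloid, 3150 in the B lineage and 3491 in the T and NK cells.

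The small secreted proteins did not all follow MUC2. TFF3, the trefoil peptide of the intestine, gave 104 UMIs per 10000 in epithelial cells on day 0, 61.6 on day 1 and 72.6 on day 3, then 2.70 on day 7 and 0.168 on day 14. After thinning to 1000 UMIs it gave 176, 85.6 and 57.9 on days 0, 1 and 3, so day 3 was below day 1. SPINK4, a Kazal-type peptide of goblet cell granules, gave 15.7, 10.8 and 25.8 per 10000 on days 0, 1 and 3 and was still counted at 7.30 (95% CI 6.84 to 7.78) on day 7 and 1.57 (1.04 to 2.27) on day 14. After thinning it gave 23.7, 12.7 and 18.9 on days 0, 1 and 3, so the order of days 0 and 3 was turned. Of the 933 SPINK4 UMIs of day 7, 704 lay in 18 cells that formed a cluster of their own, and the other 174 epithelial cells stood at 2.10 per 10000. On day 7 it was in 33.3% of epithelial cells, and in 26.4% of those outside that cluster, although none of them had MUC2. In B lineage cells of that library the share with SPINK4 was 0.905%, at a median of 3986 UMIs against 5155 in the epithelial cells. After thinning to 1000 UMIs the share was 19.3% (13.9 to 25.6) in epithelial cells. In B lineage cells, of which the first 3000 of 10274 were thinned, it was 0.200%. The SPINK4 share of day 7 thus lay above that of those B lineage cells.

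AGR2, the disulfide isomerase needed for mucin folding, differed much among the early libraries. Its level in epithelial cells, in UMIs per 10000 from day 0 to day 14, was 16.9, 7.54, 71.1, 0.219 and 0. The day 3 level was thus 9.43 times that of day 1 (9.15 to 9.72), from 90 cells, which is a log2 ratio of 3.24, and 2.59 by the mean over cells. After thinning the levels of days 0, 1 and 3 were 24.8, 7.82 and 49.2.

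MUC13, the membrane mucin, had another pattern. Its epithelial level, in UMIs per 10000 from day 0 to day 14, was 5.54, 11.8, 1.16, 16.3 and 24.8. Of these 5 libraries it was highest in those of days 7 and 14, where MUC2 was at 0, and lowest in that of day 3. The share of epithelial cells with MUC13 was 83.5%, 89.9%, 57.8%, 70.8% and 100% on the same days, and after thinning to 1000 UMIs it was 35.5%, 55.6%, 14.4%, 53.1% and 75%.

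The transcription factors were low in level and were counted almost wholly in the early libraries. SPDEF had 0.622, 0.687 and 1.09 UMIs per 10000 in epithelial cells on days 0, 1 and 3, then 1 UMI on day 7. ATOH1 had 0.211, 0.0746 and 0.648 per 10000, then 0. Day 1 was the lowest of the 3 libraries for ATOH1, at 0.353 times the day 0 level (0.294 to 0.422), while SPDEF was 1.10 times its day 0 level by sums (1.03 to 1.18) and lower by the mean over cells.

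Between neighbouring libraries, called means a level at least 2-fold apart for a gene with at least 20 UMIs on both days together, and the share of all tested genes past that line is the background. From day 0 to day 1, 1 of 9 members was 2-fold higher (MUC13) and 2 were 2-fold lower (AGR2 and ATOH1), beside 6.37% and 6.68% of all 13782 genes. From day 1 to day 3, 3 were higher (AGR2, SPINK4 and ATOH1) and MUC13 was lower, beside 21.6% and 12.8%. From day 3 to day 7, 8 of 9 members were 2-fold lower and MUC13 was higher, beside 10.8% lower and 20.5% higher. In cells without MUC2, which were all the epithelial cells of day 7, 4 members could be compared over that step. There MUC13 and SPINK4 were higher by sums, SPINK4 by 4.71-fold (3.73 to 6.02), and TFF3 and AGR2 were lower. The TFF3 sum of day 3 rested in good part on a single cell, at a level of 314. The median level of TFF3 in those 59 cells was 0 and the upper quartile 3.23, so no direction is given for TFF3 there. The background share of all genes was not computed for cells without MUC2. Of the 933 SPINK4 UMIs of day 7, 704 lay in 18 cells. From day 7 to day 14 only 4 members had enough UMIs, of which TFF3 and SPINK4 were lower and none was higher, beside 17.7% and 7.38%. The step from day 3 to day 7 was the one in which the members' count stood farthest above the background. Averaging over cells in place of summing turned the small differences of FCGBP and SPDEF between days 0 and 1 and of TFF3 between days 1 and 3 the other way, so no direction is given for those 3. It also took TFF3 past the 2-fold line from day 0 to day 1 (log2 ratio -0.75 by sums and -1.05 by means) and SPINK4 back under it from day 1 to day 3 (1.26 and 0.60).

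The epithelial cells of days 7 and 0 were spread differently over clusters. When epithelial cells were clustered with the 10 members taken out, 60 of the 192 cells of day 7 (31.2%, against 3.32% of day 0) fell in a cluster led by GP2, a receptor of M cells, 50 (26.0% against 2.81%) in one led by SI and FABP6, genes of absorptive enterocytes, 28 (14.6% against 0.693%) in a tuft-like cluster with GNG13 and POU2F3 among its leading genes and 18 in a cluster found in that library only. The cluster led by cell division genes (ASPM, TOP2A) held 1.04% of the cells of day 7 and 6.13% of day 0, while that with crypt genes (OLFM4, LGR5) held alike shares of 5.73% and 5.62%. The cluster with the most MUC2, led by REP15 and CAPN9, held none of day 7 and 13.4% of day 0. All 28 cells of day 14 lay in the cluster led by SI and FABP6. Of the 90 cells of day 3, 0% lay in that cluster, 23.3% in the one with crypt genes and 26.7% in one with TAC1 and CHGB among its leading genes. Which share of the epithelium each library sampled cannot be told apart from age.

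Counts per cell gave the share of cells with MUC2. On day 0, 33.9% of epithelial cells (95% CI 32.1 to 35.7) had at least 1 UMI of MUC2 and 21.2% (19.7 to 22.8) had at least 3, while 15.9% had at least 30. On day 1 the shares were 26.8% (24.1 to 29.7) with at least 1 and 15.4% (13.2 to 17.8) with at least 3. On day 3 they were 34.4% (24.7 to 45.2) and 24.4% (16 to 34.6), from 22 cells with at least 3. On day 7 no cell of 192 had any, which allows a share of cells with a UMI of up to 1.56% with 3 cells as the limit for a count of 0, and on day 14 none of 28, which allows up to 10.7%. The exact intervals reach 1.90% and 12.3%. By counting error alone, intervals of days 0 and 1 did not overlap at either minimum, and that of day 3 overlapped both. With 1 library per age, this cannot tell a difference of age from one of library. Among the cells of day 0 with MUC2, 346 had 1 or 2 UMIs of it and 582 had 3 or more, of which 435 had at least 30.

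**Figure D2:**
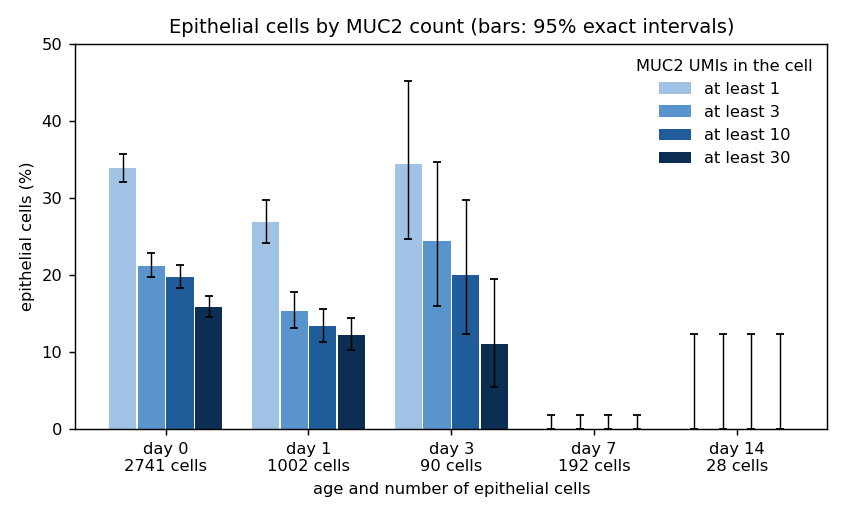
Percentage of epithelial cells with at least 1, 3, 10 or 30 UMIs of MUC2 on days 0, 1, 3, 7 and 14, 1 library per age, with 95% exact intervals; the cell numbers stand under the axis. The bars of days 0, 1 and 3 lie between 11% and 34.4%, and days 7 and 14 have no such cell.

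Most cells with much MUC2 met the rule for epithelial cells. Of all cells, those with at least 3 MUC2 UMIs numbered 683, 192, 40 and 2 in the first 4 libraries and none later, and 582, 154, 22 and 0 of them were epithelial by the rule. On day 0, 65 of the others had been left out for their PTPRC count. On day 7, 1 of the 2 was left out for PTPRC and the other had 1 to 4 epithelial marker UMIs. Of cells that met the marker minimum, the PTPRC rule left out 235 on day 0 and 64 on day 7, beside 2741 and 192 kept. Whether the MUC2 cells left out for PTPRC were doublets of a goblet cell and a leukocyte was not tested.

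Mucus RNA was also found in cells without epithelial markers. Cells with no UMI of EPCAM, KRT8 or VIL1 held the 10 members together at 3.54 UMIs per 10000 on day 0, 0.797 on day 1 and 0.189 on day 3, and at 0.124 to 0.163 later. Barcodes of at most 100 UMIs were taken as a background, and whether they hold RNA from outside cells was not tested. On day 0 they numbered 1033288 with 1460139 UMIs. They held the members, in order of age, at 102, 28.1, 2.44, 1.03, 5.03 and 0.711 UMIs per 10000. All cells together held them at 98.7, 35.2, 2.90, 0.952, 0.235 and 0.124. In the same libraries the epithelial cells held them at 164, 111, 193, 26.6, 26.6 and 0.965. In barcodes of 10 to 100 UMIs the values were 70.7, 27.5, 3.08, 1.08, 9.06 and 2.34. The sum did not stand for the same genes throughout. In epithelial cells TFF3 made 418071 of the 661291 member UMIs of day 0. MUC13 made 2089 of the 3398 of day 7 and 443 of the 475 of day 14. In barcodes of at most 100 UMIs TFF3 made 2124 of the 2482 of day 14. Like the number of epithelial cells, the level in the low barcodes was highest on day 0 and next highest on day 1 in both ranges, and the part of free RNA in the levels of cells was not tested. Whether day 14 stood above day 7 depended on the limit, since barcodes of at most 50 UMIs held the members at 1.02 on day 7 and 0.811 on day 14.

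TFF3 was the member with the widest background. On day 0 it was in 45.9% of B lineage cells and 46.5% of T and NK cells, against 69.4% of epithelial cells, and after thinning in 18.9%, 16.5% and 32.9%. AGR2 was in 12.1% of B lineage cells on day 0, SPINK4 in 11.3%, CLCA1 in 8.74%, MUC2 in 6.57%, MUC13 in 5.30%, FCGBP in 2.13%, SPDEF in 0.634% and ATOH1 in 0.136%. The share of MUC2 in T and NK cells was 6.39%, close to that in B lineage cells. On day 7 the share of B lineage cells with MUC2 was 0.0681%. A UMI of TFF3 in a cell of days 0 or 1 is therefore not read here as expression by itself, and shares of MUC2 at 1 UMI carry the same limit. By level, TFF3 in B lineage cells stood at 2.0 UMIs per 10000 on day 0 and 0.392 on day 1.

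Cells with at least 3 UMIs of MUC2 held the other goblet genes far more often than cells without MUC2. The cut at 3 was applied to MUC2 alone, so its own level in those cells is no result. On day 0, SPDEF was in 83.3% (80.1 to 86.3) of the 582 cells with at least 3 and in 1.82% of the 1813 with none. ATOH1 was in 62.2% (58.1 to 66.2) against 0.331%, FCGBP in 95.9% against 8.49%, and CLCA1 in 95.2% against 10.2%. AGR2 was in 96.9% against 21.2%, SPINK4 in 98.6% against 54.2%, and TFF3 in 99.1% against 60.5%. As a ratio of shares the contrast was wider for both factors than for the other genes named, and narrowest for SPINK4 and TFF3. As a ratio of levels on day 0 the order was another, with CLCA1 at 558, TFF3 at 366, AGR2 at 221, SPDEF at 188, FCGBP at 161, ATOH1 at 147 and SPINK4 at 19.4.

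The 346 cells of day 0 with 1 or 2 MUC2 UMIs were nearer to the cells without it than to those with at least 3. SPDEF was in 1.45% of them, FCGBP in 11% and CLCA1 in 14.2%. ATOH1 was in 2.60% (1.2 to 4.88), above the 0.331% (0.122 to 0.719) of cells without MUC2. Their median depth was 13968.5 UMIs, against 10490 for cells with none and 8300.5 for cells with at least 3.

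**Figure D3:**
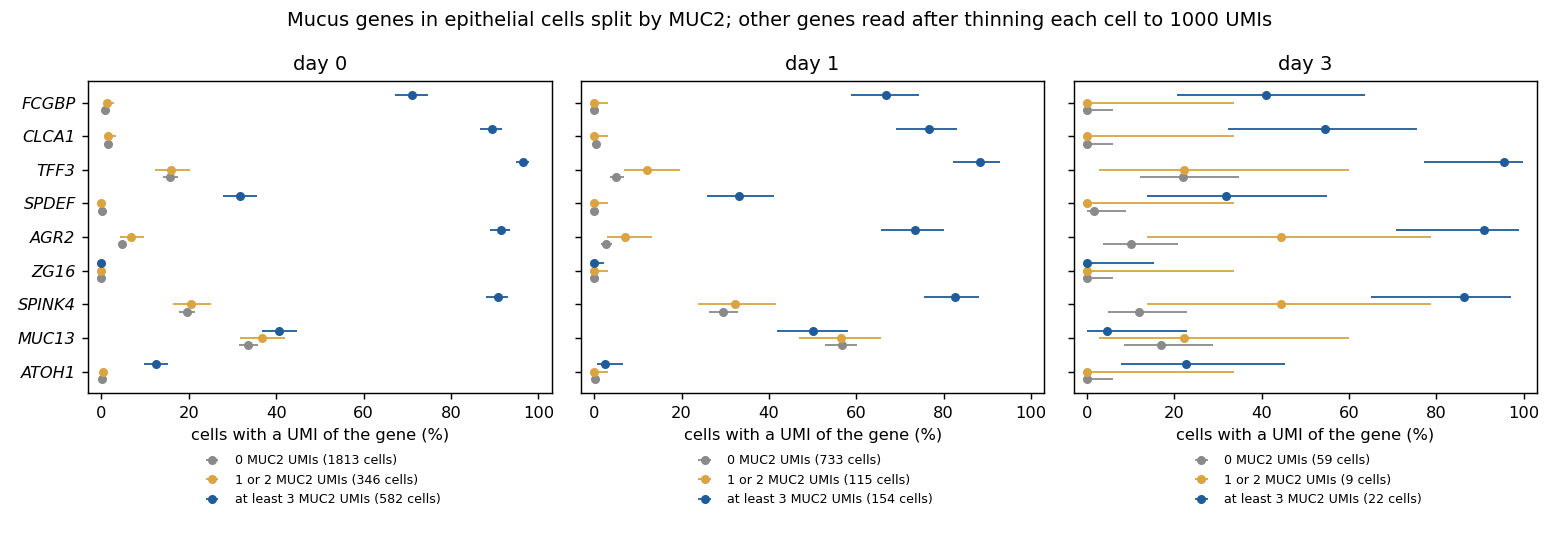
Percentage of epithelial cells with a UMI of each other gene on days 0, 1 and 3, for cells with 0 (grey), 1 or 2 (yellow) and at least 3 (blue) MUC2 UMIs at their own depth, read after each cell was thinned to 1000 UMIs; bars are 95% exact intervals. CLCA1, TFF3, AGR2 and SPINK4 of day 0 lie between 89.3% and 96.6% in the blue cells, while MUC13 lies at 40.7% in the blue and 33.5% in the grey cells of day 0.

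The contrast was also seen at 1 depth. After thinning each cell of day 0 to 1000 UMIs, with the split kept, FCGBP was in 71.1% of cells with at least 3 MUC2 UMIs and in 0.883% of those with none. CLCA1 was in 89.3% against 1.54%, AGR2 in 91.4% against 4.63%, TFF3 in 96.6% against 15.7%, SPINK4 in 90.7% against 19.5%, SPDEF in 31.6% against 0.165% and ATOH1 in 12.4% against 0.0552%. On day 1 the thinned shares were 66.9% against 0% for FCGBP, 76.6% against 0.409% for CLCA1 and 82.5% against 29.5% for SPINK4. On day 3, from 22 and 59 cells, CLCA1 was in 54.5% against 0% and AGR2 in 90.9% against 10.2%. For the genes named, cells with MUC2 were thus ahead in each library at equal depth.

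MUC13 differed least between those cells. On day 0 it was in 95.2% of cells with at least 3 MUC2 UMIs and in 79.9% of those with none, yet its level was 4.61 UMIs per 10000 in the first (95% CI 4.47 to 4.74) and 5.71 in the second. On day 1 the levels were 8.87 and 12.6, and on day 3 they were 1.01 (0.658 to 1.48) and 1.13. Averaged over cells, MUC13 on day 0 was higher in MUC2 cells, at a mean of 5.47 against 5.09 and a median of 4.65 against 3.46, and its share after thinning was 40.7% against 33.5%. No direction is therefore given for day 0. On day 1 the mean over cells was lower in MUC2 cells too, at 8.44 against 11.9, and on day 3 the summed levels were within counting error of each other. Its change over the ages was seen in both kinds of cells, from 4.61 to 8.87 between days 0 and 1 in MUC2 cells and from 5.71 to 12.6 in the others.

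Single cells with MUC2 often held most of the goblet set at once. Of the 9 members other than MUC2, the median cell with at least 3 MUC2 UMIs held 8 on day 0, 7 on day 1 and 7 on day 3, against 2, 2 and 1 in cells without MUC2. The next counts are over FCGBP, CLCA1, SPDEF, AGR2 and ATOH1, the 5 members besides ZG16 that were rarest in cells without MUC2 on day 0, and since they were picked for that contrast the counts only describe it. At least 4 were found in 515 of the 582 cells with at least 3 MUC2 UMIs on day 0 (191 with 4 and 324 with all 5), and in none of the 1813 cells without MUC2. On day 1 these numbers were 130 of 154 and 0 of 733, and on day 3 they were 18 of 22 and 1 of 59. At the other end, 11 of the 582 cells of day 0 had MUC2 and none of the 5. Seen from the early factor, 98.4% of the 377 cells of day 0 with ATOH1 also had MUC2 and 87.0% had SPDEF, against 23.6% and 8.25% of the cells without ATOH1.

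How much of each member a MUC2 cell held was not the same in the 3 libraries. TFF3 summed to 433 UMIs per 10000 in such cells on day 0, 266 on day 1 and 199 on day 3. AGR2 gave 69.8, 31.2 and 212, and SPINK4 56.7, 28.3 and 75.1. CLCA1 gave 48.6, 44.7 and 25, FCGBP 10.9, 12.7 and 7.83, SPDEF 2.57, 2.96 and 3.18, and ATOH1 0.855, 0.318 and 1.90. The means over cells on the same days were 817, 544 and 199 for TFF3, 114, 51.3 and 188 for AGR2 and 100.5, 52.4 and 69.6 for SPINK4. They were 86.1, 91.6 and 29.1 for CLCA1, 19, 24.6 and 8.38 for FCGBP, 4.50, 5.38 and 3.28 for SPDEF and 1.40, 0.565 and 1.82 for ATOH1. By both measures TFF3 was lower on each later day, AGR2 was lowest on day 1 and highest on day 3, and SPINK4 and ATOH1 were lowest on day 1. CLCA1 between days 0 and 1, SPDEF between days 1 and 3, and both SPDEF and SPINK4 between days 0 and 3 changed direction with the measure. The day 3 values rest on 22 cells. The MUC2 cells of the libraries also lay in different clusters, with 62.9% of day 0, 38.3% of day 1 and 0% of day 3 in the cluster led by REP15 and CAPN9. Within that cluster TFF3 stood at 1130 UMIs per 10000 on day 0 and 1144 on day 1, CLCA1 at 114 and 176, FCGBP at 24.9 and 46.0, and AGR2 at 153 and 91.0. For TFF3 and CLCA1 the difference between days 0 and 1 therefore depended on which MUC2 cells were summed. FCGBP was higher and AGR2 lower on day 1 in both sets of cells.

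Cells with at least 3 MUC2 UMIs differed widely within a library. In the 582 such cells of day 0 the median TFF3 level per cell was 920 UMIs per 10000, with quartiles of 318 and 1209 and a highest cell of 1838. AGR2 had a median of 93.8 and quartiles of 43.4 and 159, and CLCA1 a median of 75.7 and quartiles of 37.1 and 123. On day 1 the medians were 294 for TFF3, 27.3 for AGR2 and 54.7 for CLCA1. The mean over cells was higher than the level from summed UMIs, at 817 against 433 for TFF3 on day 0 and 52.7 against 30.1 for MUC2, since cells with many UMIs weigh more in a sum. On day 3 the quartiles of AGR2 were 38.6 and 313, so its range within the 22 cells was wider than the difference between its medians on days 0 and 3, 93.8 and 188.

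Clustering that had not seen the 10 genes drew many MUC2 cells of days 0 and 1 into 1 cluster, which held none of day 3. Of 23 clusters, 1 held 425 cells, 366 of day 0 and 59 of day 1, and each of them had at least 3 UMIs of MUC2. It was led by REP15, CAPN9, PDE2A, MLPH, RASD1, ERN2, FAM3D, LOC100525396, LRRC31 and CXCL8, of which REP15, CAPN9 and ERN2 are on the list of goblet markers, and it is called goblet-like. It held 56.1% of the 758 epithelial cells with at least 3 MUC2 UMIs, or 62.9% of those of day 0 and 38.3% of day 1. Its levels were 64.0 UMIs per 10000 for MUC2, 1133 for TFF3, 142 for AGR2, 130 for SPINK4, 126 for CLCA1, 28.8 for FCGBP, 6.52 for SPDEF and 1.58 for ATOH1, while MUC13 stood at 6.05, within the range of other clusters. Its median depth was 7537 UMIs.

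**Figure D4:**
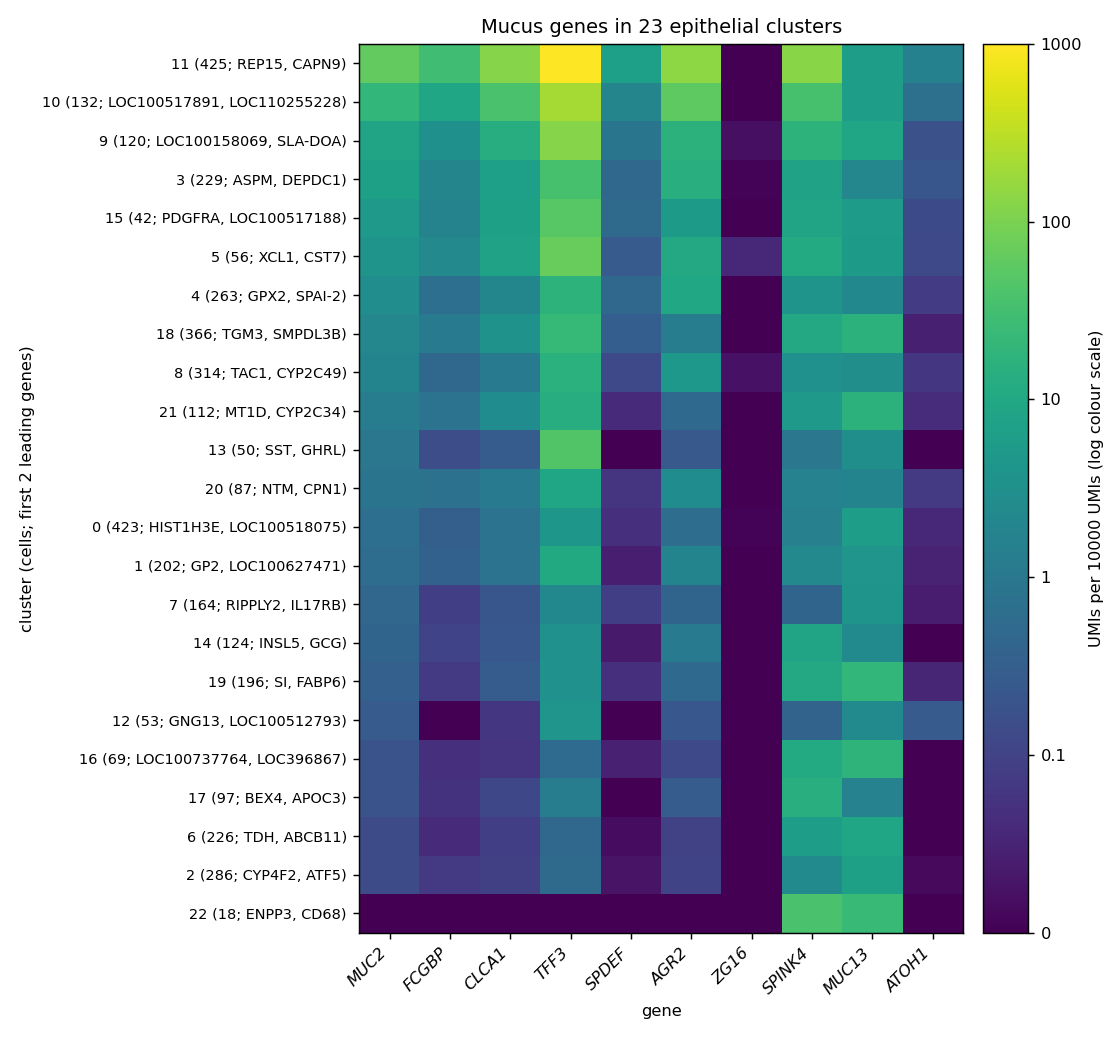
Level of the 10 genes in 23 clusters of epithelial cells formed without them, in UMIs per 10000 UMIs on a log colour scale whose top colour also stands for levels above 1000, with clusters ordered by MUC2; each row gives the cluster number, its cells and its first 2 leading genes. Clusters 11 and 10 at the top are high in the genes shown other than ZG16 and MUC13, while SPINK4 and MUC13 are high in clusters at the bottom, where MUC2 is near 0.

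The other MUC2 cells were spread over other clusters. A cluster of 132 cells with RETNLB and LOC100736733 among its leading genes had at least 3 MUC2 UMIs in 82.6% of its cells and held 14 of the 22 MUC2 cells of day 3. It carried 14 markers of absorptive enterocytes, 14 of enteroendocrine cells and 9 of crypt cells besides 7 of goblet cells, at a median depth of 17569.5 UMIs. The marker lists differ in length, so these counts do not rank the kinds. Its goblet markers outside the members summed to 36.9 UMIs per 10000, of which RETNLB made 33.8, against 34.4 in the goblet-like cluster. Absorptive and enteroendocrine markers summed to 59.5 and 15.3, against 7.28 and 5.08 there. With markers of several kinds it was left unnamed. In the cluster of dividing cells, led by ASPM, 25.8% of 229 cells had at least 3 MUC2 UMIs, and in the cluster with OLFM4 and LGR5 12.2% of 263. Clusters led by genes of B cells, T and NK cells and stromal cells had 26.7%, 16.1% and 16.7%. A cluster with 365 of its 366 cells from day 1 had 8.20%. Whether these were doublets, carried free RNA or were goblet cells in other states was not tested.

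TFF3 and SPINK4 were also found in clusters with little MUC2. In a cluster of 50 cells led by SST and GHRL, hormone genes of enteroendocrine cells, TFF3 stood at 44.0 UMIs per 10000 in 82.0% of cells, while MUC2 was at 0.936 and SPDEF and ATOH1 were at 0. Of its 37 cells of day 0, 5 had at least 3 MUC2 UMIs, and TFF3 was not read without them. In all 37 TFF3 was at 50.1, against 2.0 in B lineage cells of that library. Clusters with enteroendocrine genes were not alike in this, since on day 0 TFF3 was at 2.03 in the one with NEUROD1 and at 17.0 in the one with TAC1 and CHGB among the leading genes. SPINK4 was in every cell of a cluster of 69 cells, nearly all of day 0, and of one of 18 cells of day 7, at 11.2 and 37.1 per 10000. Both held absorptive enterocyte markers, 14 in each, and their MUC2 was at 0.183 and 0. MUC13 was highest in those clusters, at 17.7 and 25, and in the cluster led by SI and FABP6, at 20.8.

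Other genes were ranked by how closely they followed MUC2. Of genes counted in 10% or more of the MUC2 cells, meaning those with 3 or more of its UMIs, 5.95% were 2-fold higher than in cells with none on day 0 and 4.61% on day 1, and 280 of 8451 (3.31%) on both days. Since this minimum looks at the MUC2 cells alone, the shares say nothing of the balance of higher and lower genes. Over genes with at least 20 UMIs in both kinds of cells together, more were lower than higher, 1155 against 930 on day 0 and 837 against 616 on day 1. Ranked by the lower ratio of both libraries, with a count under 3 set to 3, the members came near the top in the order CLCA1, TFF3, SPDEF, FCGBP, ATOH1 and AGR2. The 10 other genes most like MUC2 were LOC100736733, for which RefSeq gives the synonym ITLN2 (an intelectin), MLPH, RETNLB, FAM3D, ERN2, ST6GAL2, KCNMA1, REP15, COL11A2 and PNLIPRP2. With no minimum share of cells but 20 UMIs in all, 8 of these 10 stayed, and PLA2G2A and BPI took the places of COL11A2 and PNLIPRP2. RETNLB, the goblet cell resistin-like molecule, stood at 25 UMIs per 10000 in MUC2 cells of day 0 against 0.135 in the others, at 10.3 against 0.0270 on day 1 and at 109 against 1.09 on day 3. LOC100736733 stood at 19.7 against 0.0345 on day 0 and was found in 48.1% of the MUC2 cells. A gene with the symbol ITLN2 is also counted, and reads shared between them could have been split. ERN2, the stress sensor IRE1 beta of mucous cells, had 356 UMIs in MUC2 cells of day 0 and 2 in the others. On day 1 it had 117 and 0 UMIs, a ratio of 107 with the 0 set to 3.

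**Figure D5:**
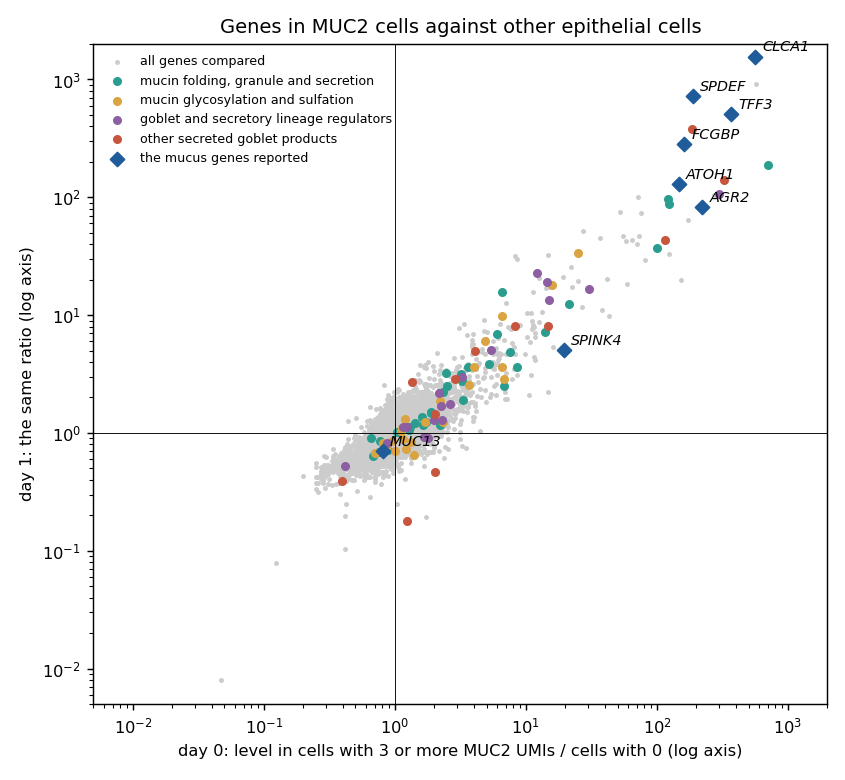
Ratio of each gene's level in cells with at least 3 MUC2 UMIs to that in cells with 0, on day 0 (x axis) and day 1 (y axis), both log axes, for 8450 genes counted in 10% or more of the MUC2 cells; coloured points are genes of the lists and diamonds the members. All members that could be compared lie at the upper right except SPINK4, which lies lower, and MUC13, which lies below 1 on both axes.

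Of the lists of related genes, the next counts are over genes with at least 20 UMIs, of which 7.11% were 2-fold higher and 8.83% lower in MUC2 cells of day 0, and 5.15% and 6.99% on day 1. The median ratio of all genes was 1.00 on both days and 0.814 on day 3. Of the members other than MUC2, 7 of 8 tested were higher on each of days 0, 1 and 3, MUC13 being the one that was not. On day 3, 5.44% of genes were 2-fold higher and 18.0% lower. The median ratio of the 8 members was 174, 206 and 44.0 on those days, with a count under 3 set to 3. Ratios of the list genes below come from summed levels, and means over cells were not computed for them.

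Regulators of the secretory lineage were higher more often than lower, with 13 of 24 higher and 2 lower on day 0, and 11 and 1 on day 1, at median ratios of 2.11 and 1.72. FOXA3, a forkhead factor of goblet cells, was 15.0-fold higher on day 0 (95% CI 12.5 to 18.1) and 13.5-fold on day 1 (9.88 to 18.8). CREB3L4, a factor of the secretory pathway, was 30.4-fold and 16.8-fold higher, and GFI1, which keeps secretory precursors from the endocrine fate, 12-fold and 22.8-fold, the latter from 3 UMIs in the other cells (6.96 to 118). The Notch ligands DLL1 and DLL4 were 3.55-fold and 5.37-fold higher on day 0. INSM1, a factor of endocrine cells, was at 0.215 of the level in other cells on day 0 and 0.744 on day 1.

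Enzymes that build the sugar chains of mucins gave 12 of 29 genes higher and none lower on day 0, and 9 of 26 higher and 1 lower on day 1, at median ratios of 1.69 and 1.17. GALNT5, which starts O-glycosylation, was 25-fold and 33.4-fold higher. GALNT12 was 4.01-fold and 3.60-fold higher, and ST6GALNAC1, which caps mucin sugars with sialic acid, 4.90-fold and 6.01-fold. FUT2, the fucosyltransferase of mucosal secretions, was 5.54-fold and 4.30-fold higher. GALNT1 and GALNT2, of the same family, stood at 0.938 and 0.820 on day 0.

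Genes of mucin folding, granules and secretion gave 22 of 38 higher and none lower on day 0, and 21 of 39 higher and 1 lower on day 1, at median ratios of 2.47 and 2.21. The lower one on day 1 was BEST4, a channel of another epithelial cell type, at 0.125. MLPH, which links granules to myosin, had 839 UMIs in MUC2 cells of day 0 and 3 in the others. Its partners in granule transport were higher too, RAB27A 8.52-fold and 3.63-fold, and SYTL2 21.5-fold and 12.5-fold. The chaperone HSPA5 and the disulfide isomerase PDIA4, both of the endoplasmic reticulum, stood at ratios of 1.30 and 1.28 on day 0 and 1.94 and 2.56 on day 3, of which only the last passed 2-fold.

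Other secreted products gave 11 of 18 higher and 4 lower on day 0, and 9 and 4 of 16 on day 1, at median ratios of 2.45 and 2.80. FAM3D, a secreted protein of the cytokine-like FAM3 family, was 327-fold higher on day 0 and 140-fold on day 1, and REG4, a secreted lectin, 14.8-fold and 8.10-fold. LYPD8, which coats flagellated bacteria, was 8.19-fold and 8.08-fold higher. CLCA4, a relative of CLCA1 in enterocytes, went the other way at 0.395 and 0.389. GUCA2A, the gene of guanylin, changed side between libraries by sums, with a ratio of 2.01 on day 0 (1.97 to 2.06), 0.466 on day 1 (0.446 to 0.487) and 8.08 on day 3 (7.49 to 8.72). The epithelial cells of these libraries lay in different clusters, and the part of cell make-up in this change was not tested.

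Of the other mucins few could be measured. Of 14 on the list 10 were in the files and 5 had at least 20 UMIs in the cells compared on day 0, at a median ratio of 3.11, and 3 on day 1, at 0.521. MUC1, a membrane mucin, was 3.11-fold higher in MUC2 cells on day 0 (1.93 to 5.05) and 5.20-fold on day 1, from 42 and 19 UMIs. MUC5AC, the gel-forming mucin of the stomach and airways, had 24 UMIs in MUC2 cells of day 0 and 1 in the others. MUC20 was lower, at 0.142 and 0.217.

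The mitochondrial genes ND3 and COX2, parts of the respiratory chain, were read in the same cells. ND3 stood at 24.6 UMIs per 10000 in MUC2 cells of day 0 against 35.4 in the others, at 25.3 against 40.6 on day 1 and at 56.8 against 55.9 on day 3. COX2 stood at 181 against 262, 185 against 260 and 369 against 371. Both were thus lower in MUC2 cells of the first 2 libraries, by the mean over cells too, and differed by at most a few percent in sums on day 3.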

How the data were processed

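The authors counted UMIs per gene and barcode with Cell Ranger 3.1.0 and STAR, named in the submitters' processing notes with susScr11, and deposited unfiltered raw counts of 20648 genes. The 10x kit is v2 in the methods and V3 in the labels, and the text on the whole series names the cecum where sample labels and paper give the ileum. Cells, epithelial cells and classes were called here from the counts, classes by the most UMIs among fixed markers (at least 3) in cells with no epithelial marker. Members and lists were chosen with earlier results of these data known. Named genes are the members, list and marker genes, ND3 and COX2, and the 10 top genes of each ranking. Doublets were kept and an alternative removed likely ones. Clusters used 2000 variable genes without the members, 30 components, 20 neighbours and Leiden resolution 0.8 in scanpy 1.11.5. Scripts ran in Python 3.11.15 with numpy 2.4.6, scipy 1.17.1 and pandas 2.3.3, and were tested on simulated data. With 1 library per age no test was run. UMI depth limits zeros to 3 counts.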

Additional observations from a re-analysis of the deposited data

Results flagged for a closer look

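For 5 genes a step between libraries went one way in cells with at least 3 MUC2 UMIs and the other way in epithelial cells without MUC2, with both counting intervals clear of 1. Each group is 1 library per age, so the differences were not tested, and they are given as ratios of levels with 1 as no change. From day 0 to day 1, FCGBP was 1.17 times its level in MUC2 cells and 0.665 times in the others. SPDEF was 1.15 times against 0.299 times, the latter from 33 and 5 UMIs. In the others FCGBP stood at only 0.0677 and 0.0450 UMIs per 10000 and SPDEF at 0.0137 and 0.00409. In barcodes of at most 100 UMIs both were lower on day 1 too, FCGBP at 1.48 and 0.472 and SPDEF at 0.390 and 0.183. There AGR2 and SPINK4 were also lower on day 1, at 10.2 and 1.65 and at 10.6 and 4.56. The part of free RNA in these steps was not tested. AGR2 was 0.447 times in MUC2 cells against 1.2 times in the others by sums, but its mean over cells was also lower on day 1 in the others, at 0.405 UMIs per 10000 against 0.563. SPINK4 was 0.498 times against 1.91 times. From day 1 to day 3, TFF3 was 0.750 times in MUC2 cells and 18.7 times in the others, and SPINK4 2.66 times against 0.276 times. By means over cells the directions were the same but the sizes differed, with TFF3 going from 544 to 199 UMIs per 10000 in MUC2 cells and from 1.01 to 9.17 in the others, and SPINK4 from 52.4 to 69.6 and from 5.23 to 1.78. The others numbered 1813 cells on day 0, 733 on day 1 and 59 on day 3, and a single cell of day 3 without MUC2 reached 314 UMIs of TFF3 per 10000. The median of TFF3 in those 59 cells was 0 and the upper quartile 3.23, so the 18.7 times rested in good part on that cell. The counting intervals do not cover such spread between cells. The epithelial cells of these libraries also lay in different clusters. One led by TGM3 and SMPDL3B held 36.4% of those of day 1 and 0% of days 0 and 3. One with TAC1 and CHGB among its leading genes held 9.08%, 3.99% and 26.7% of days 0, 1 and 3. The part of cell make-up in these steps was not tested. From day 1 to day 3 FCGBP was 0.617 times in MUC2 cells and 2.24 times in the others, where the interval of 0.698 to 5.54, from 55 and 5 UMIs, took in 1.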

How the results depend on the processing

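No paired analysis was possible because each age has 1 library. The percentage of epithelial cells with MUC2 was 33.86 percentage points lower on day 7 than on day 0 (-33.86), and -37.52 with 10 epithelial marker UMIs, -21.01 after thinning to 1000 UMIs, -21.23 with at least 3 and -19.77 with at least 10 MUC2 UMIs. In epithelial cells TFF3 made most of the member UMIs of day 0 and MUC13 most of those of day 7. The log2 ratio of the summed members in epithelial cells, day 7 against day 0, was -2.63, and -2.76 with 3 epithelial marker UMIs, -2.91 without likely doublets, -3.62 after thinning and -3.63 as a mean over cells. In barcodes of at most 100 UMIs it was -6.63, and -6.03 in those of 10 to 100. Genes 2-fold higher in MUC2 cells of both days numbered 280, 158 when 1 MUC2 UMI was enough, with the 10 top genes shared, and 378 with no minimum share of cells, with 8 shared. Mean over cells reversed FCGBP and SPDEF between days 0 and 1 (0.17 to -0.11 and 0.14 to -0.22 as log2 ratios) and TFF3 between days 1 and 3 (0.24 to -0.55). Of the comparisons with alternatives, 29 of main values and 34 of single genes or libraries stayed within counting error or, for counts, within 1.5 times, and 26 of the latter moved further without turning. The cause was not tested. On day 14, 0 of 28 epithelial cells allows a share with a MUC2 UMI of up to 10.7%, and 1 cell sets no limit on day 21.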
